A study of Mus spretus with 8 samples.

Results

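Orosomucoids, serum amyloid A proteins and a few other plasma proteins of the acute phase were followed in the liver of Mus spretus fed p,p'-DDE. The set held 10 genes chosen by symbol: the orosomucoids Orm1, Orm2 and Orm3, the serum amyloid A genes Saa1, Saa2, Saa3 and Saa4, and Crp, Hp and Lcn2. Each was represented by 1 probe, so the set covered 10 of the 42957 probes and 10 of the 22471 genes named on the array. The animals were male mice of the inbred SPRET/EiJ strain, which descends from a wild mouse species other than the one behind the usual laboratory strains, and they were 7 weeks old at the start. The control group was 4 mice given Harlan diet with corn oil for 30 days. The DDE group was 4 mice given the same diet and oil with p,p'-DDE, a long-lived metabolite of DDT, at 450 mg/kg of feed for 30 days. Total liver RNA of each mouse was measured on 1 single-colour array, and each value below is a log2 signal, where a difference of 1 stands for a doubling.

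The acute phase response is the change in plasma proteins that the liver makes when cytokines, chiefly interleukin-6 and interleukin-1, reach hepatocytes. STAT3, C/EBP and NF-kappaB factors then switch on the genes of positive acute phase proteins, while genes of negative ones, such as albumin, are turned down. Orosomucoid, or alpha-1-acid glycoprotein, binds basic and lipophilic drugs in plasma, and mice carry several closely related genes for it. Orm3 was set against the other genes because it is regarded as responsive to CAR, a nuclear receptor that controls drug metabolism in hepatocytes.

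The labelled tissue was borne out by its markers, with Alb, the albumin gene, between 15.89 and 16 on all 8 arrays. All 8 hepatocyte markers lay above background on every array, where background is the signal that 95% of the probes for olfactory and vomeronasal receptors did not exceed (7.55 to 7.81). Pancreatic enzyme genes were also bright in the livers of both groups. The summed signal of 6 such genes was 16.11 to 18.15 in controls and 16.23 to 17.56 after DDE on the log2 scale, and its part in the results was not tested. Patches of locally raised or lowered signal, called stained below, covered from 0.521% of the spots on DDE 1 to 9.50% on control 4. Among the spots of the 10 genes, those of Orm3 on control 3 and of Saa2 on control 4 lay in such patches.

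Orm3 and Crp rose after DDE, and the other 8 genes did not pass the test. The test was limma over all probes with Benjamini-Hochberg adjustment and a threshold of 0.05. By the same rule 2.34% of all probes rose and 0.661% fell, 3.00% in either direction, and with 1 probe per gene it was 3.35% in either direction. At an unadjusted p under 0.05, 4 of the 10 genes were higher and 1 was lower, and 15.0% of all probes differed. The 10 genes had a median change of 0.35, against 0.015 over all genes with a probe. These sets differ in signal. Of the 10 genes, 8 lay above background on all arrays, while 40.2% to 46.9% of all probes did so on a given array. In bulk tissue, a change in the share of a cell type and a change in RNA per cell cannot be told apart.

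**Figure D1:**
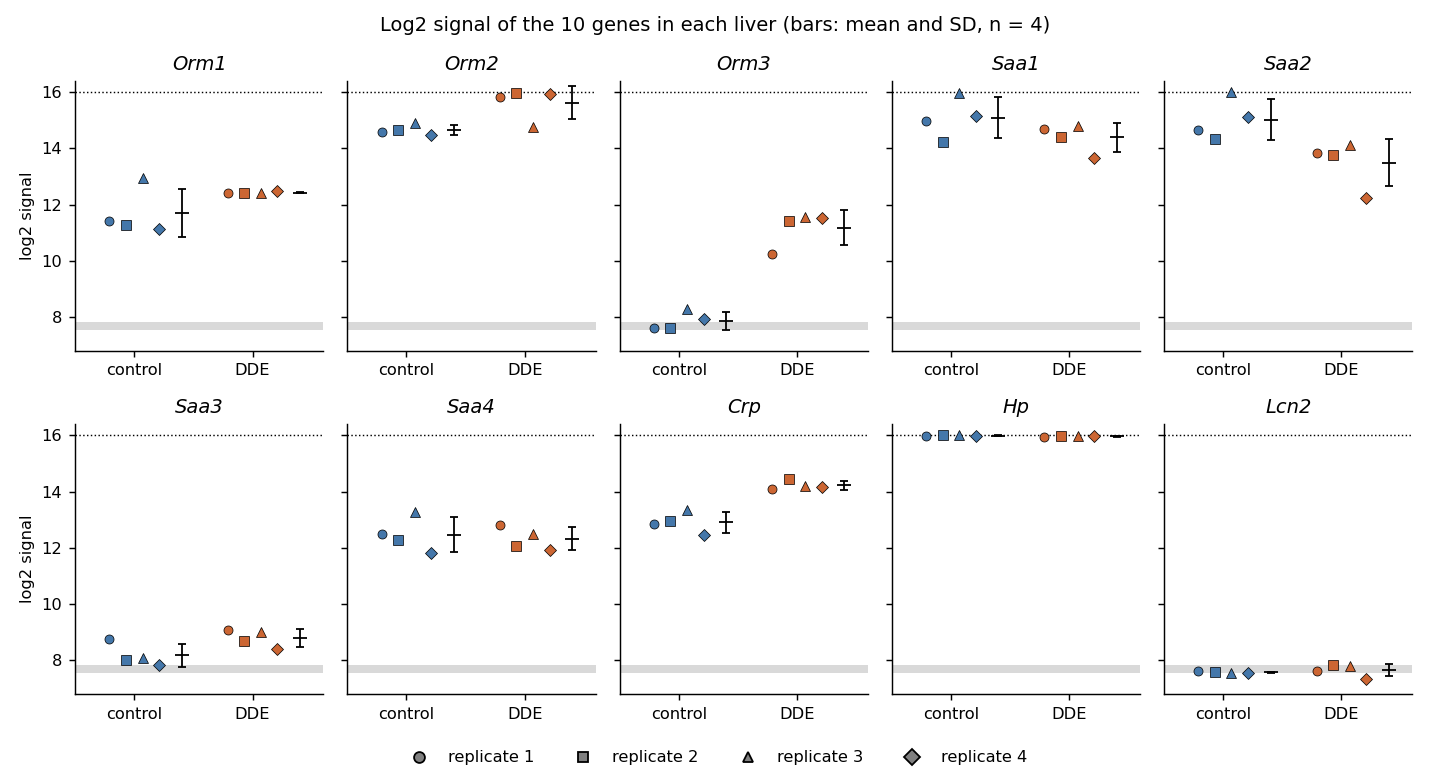
Log2 signal (vertical axis) of each of the 10 genes in the 4 control livers (blue) and the 4 DDE livers (orange), with the mean and SD beside them. The grey band is the range of the background levels (7.55 to 7.81) and the dotted line the top of the scale (16). Orm3 lies between 10.26 and 11.55 in the DDE livers and near the band in controls, Hp lies at the top in all 8 livers, and control 3 (blue triangle) is the highest control for Orm1, Orm2, Orm3, Saa1, Saa2, Saa4 and Crp.

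Orm3 (Entrez Gene 18407), one of the orosomucoid genes, read 7.62, 7.61, 8.28 and 7.93 in controls 1 to 4 and 10.26, 11.42, 11.55 and 11.51 in DDE 1 to 4. The groups did not overlap, and the lowest DDE liver, DDE 1, stood apart from the other DDE livers. Control levels were at or barely above background, with 2 of the 4 controls above it, so the rise is a lower bound. Orm3 went from 7.86 ± 0.32 to 11.18 ± 0.62 (SD, n = 4), at least 9.76-fold higher (limma adjusted p = 0.00704). The highest control value, that of control 3, was on a stained spot. With stained spots left out the log2 change was 3.46 (limma adjusted p = 0.00693).

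Orm1 (Entrez Gene 18405) gave 11.42, 11.29, 12.95 and 11.12 in controls 1 to 4 and 12.40, 12.43, 12.43 and 12.47 in DDE 1 to 4. The 4 DDE livers agreed closely, with a range of 0.07, and all exceeded controls 1, 2 and 4, while control 3 was above every DDE liver. The change was 0.74 ± 0.39 (SE, n = 4 per group) and did not pass (limma adjusted p = 0.465). Without control 3 it was 1.16 and passed (limma adjusted p = 0.00906). The call for Orm1 thus turned on 1 control liver, whose spot for this gene lay in no stained patch.

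Orm2 (Entrez Gene 18406) gave 14.58, 14.66, 14.90 and 14.49 in controls and 15.83, 15.98, 14.76 and 15.94 in DDE 1 to 4. DDE 1, DDE 2 and DDE 4 were above every control, and DDE 3 lay within the control range. DDE 2 and DDE 4 were within 0.1 of the top of the scale, so the change of 0.97 ± 0.28 (SE) is a lower bound. It did not pass (limma adjusted p = 0.137), and without DDE 3 it was 1.26 and passed (adjusted p = 0.0174). The 3 orosomucoid genes are closely related in sequence, and how far each probe binds transcripts of the other 2, or of the Mus spretus alleles, is not known from the files.

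Crp (Entrez Gene 12944), which encodes C-reactive protein, a strong acute phase protein in humans and a weak one in mice, read 12.85, 12.95, 13.36 and 12.47 in controls 1 to 4. It read 14.08, 14.44, 14.21 and 14.18 in DDE 1 to 4, and every DDE liver was above every control. The rise from 12.91 ± 0.37 to 14.23 ± 0.15 (SD, n = 4) was 2.50-fold (limma adjusted p = 0.0184). No Crp spot was stained, and all values were well inside the measurable range. The size held when single arrays were left out (1.17 to 1.47), but it did not pass once control 2, DDE 2 or DDE 3 was left out (limma adjusted p = 0.0594, 0.0639 and 0.0544).

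Groups that did not overlap were thus seen as higher for Orm3 and Crp and as lower for Saa2, where over all genes 8.48% were higher and 4.06% lower in this way. Saa2 did not pass the limma test.

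Saa1 and Saa2 encode the serum amyloid A forms that the mouse liver releases into high density lipoprotein during inflammation, and neither rose. Saa1 (Entrez Gene 20208) had 14.98, 14.24, 15.99 and 15.17 in controls 1 to 4 and 14.69, 14.42, 14.79 and 13.67 in DDE 1 to 4. Control 3 was at the top of the scale, and the groups overlapped, with control 2 below 3 of the DDE livers. The change was -0.70 (95% interval -1.65 to 0.24, limma adjusted p = 0.508), and it was -0.40 without control 3 and -0.46 without DDE 4. Saa2 (Entrez Gene 20209) had 14.64, 14.35, 16 and 15.12 in controls 1 to 4 and 13.85, 13.75, 14.13 and 12.25 in DDE 1 to 4. All 4 DDE livers lay below all 4 controls, DDE 4 being the lowest and control 3, at the top of the scale, the highest. The spot of control 4 was stained. The change was -1.53 (95% interval -2.73 to -0.34, limma adjusted p = 0.193), and it was -1.21 without control 3 and -1.12 without DDE 4. Saa1 and Saa2 are near copies of each other, so their probes may share transcripts and cannot be taken as independent.

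Saa3 and Saa4 differ from that pair in where and when they are made. Saa4 (Entrez Gene 20211), the form made constitutively in liver, had 12.49, 12.28, 13.29 and 11.80 in controls 1 to 4 and 12.83, 12.08, 12.49 and 11.91 in DDE 1 to 4. The groups overlapped and the change was -0.14 (95% interval -0.94 to 0.67, limma adjusted p = 0.856). Its sign turned without control 3, when the change was 0.14. Saa3 (Entrez Gene 20210), a form known mainly from macrophages and fat tissue, was dim, at 8.74, 8.0, 8.09 and 7.84 in controls 1 to 4 and 9.09, 8.68, 8.99 and 8.39 in DDE 1 to 4. DDE 1 and DDE 3 were above every control, while DDE 2 and DDE 4 were not. Its change of 0.62 (95% interval 0.066 to 1.17) did not pass (limma adjusted p = 0.268).

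The 2 remaining genes fell at the ends of the measurable range. Hp (Entrez Gene 15439), the gene of haptoglobin, which captures free haemoglobin, read 15.97 to 16 in controls and 15.94 to 15.99 after DDE. All 8 values were within 0.1 of the top of the scale, so a change in either direction could have gone unmeasured. Lcn2 (Entrez Gene 16819), which encodes lipocalin-2, a binder of bacterial siderophores that is strongly induced in inflamed liver, read 7.53 to 7.60 in controls and 7.63, 7.82, 7.79 and 7.34 in DDE 1 to 4. None of the 4 controls and 3 of the 4 DDE livers exceeded background for it, with a change of 0.08 (95% interval -0.18 to 0.34, limma adjusted p = 0.729).

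**Figure D2:**
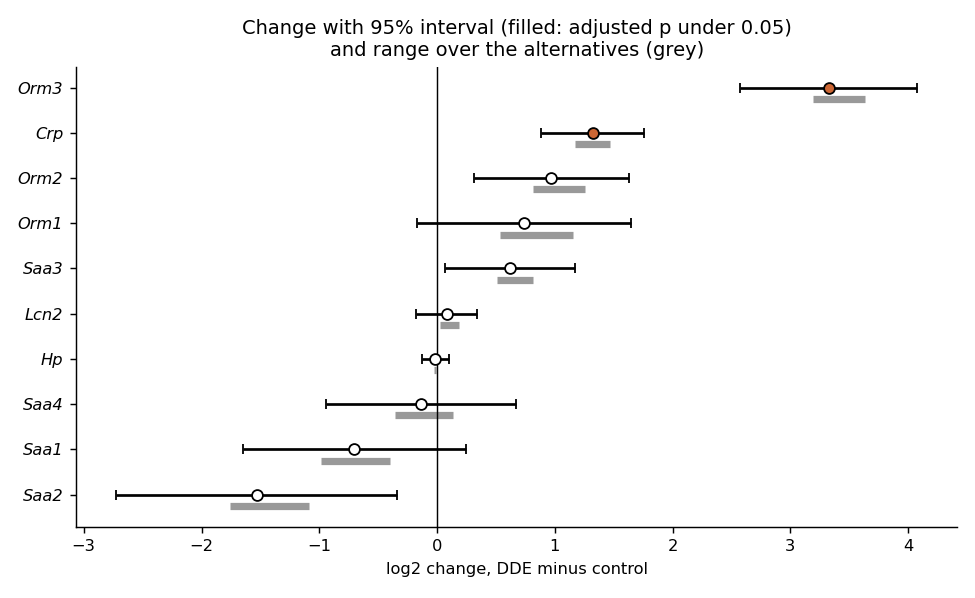
Log2 change, DDE minus control (horizontal axis), of each gene with its 95% interval from limma (black, n = 4 per group) and the range of the change over the alternative analyses (grey). Filled points passed the threshold. Orm3 (3.33) and Crp (1.32) passed, and the intervals of Orm2, Saa3 and Saa2 leave out 0 although their adjusted p was above 0.05.

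Whether Orm3 responded more than its neighbours in the set was tested directly. The log2 signal of each other gene was subtracted from that of Orm3 within each liver, and the groups were compared with an exact two-sided permutation test over the 8 livers, 9 comparisons in all. The rise of Orm3 exceeded that of Crp by 2.00, that of Orm2 by 2.35 and that of Orm1 by 2.59. It exceeded the change of Saa3 by 2.71. The differences from Saa4, Saa1 and Saa2 were 3.46, 4.03 and 4.86. Those from Lcn2 and Hp (3.25 and 3.34) restate the rise of Orm3 itself. Hp lay at the top of the scale in all livers, so its difference does not compare its response with that of Orm3. Lcn2 lay at background in controls and read 7.34 to 7.82 after DDE. Its signal thus rose less than that of Orm3, but a change of Lcn2 below background could have gone unmeasured. In all 9 comparisons the 4 DDE livers were above the 4 controls, which gave the smallest p that this design allows (exact permutation p = 0.0286 for each, and 0.0286 after Benjamini-Hochberg adjustment over the 9). Differences from Orm2 (DDE 2 and DDE 4), Saa1 and Saa2 (control 3) are affected by values at the top of the scale, and control values of Orm3 at background make its own rise a lower bound. The set was chosen with the response of Orm3 already known, so these tests are not independent evidence of it.

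**Figure D3:**
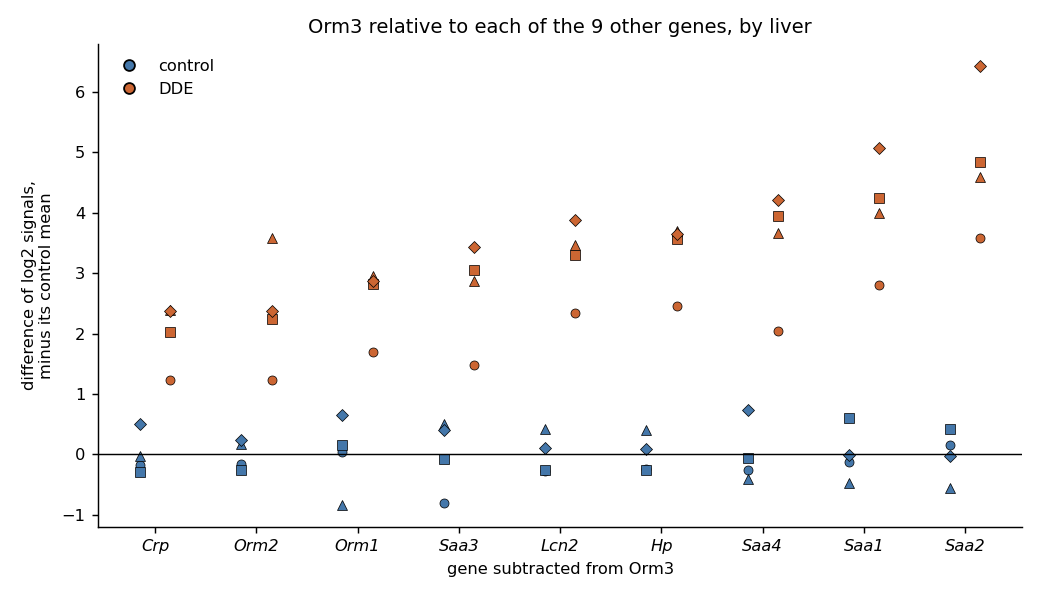
Log2 signal of Orm3 minus that of the gene named on the horizontal axis, in each control liver (blue) and DDE liver (orange), set to a control mean of 0. In all 9 columns the DDE livers lie above the controls, with mean differences from 2.00 (Crp) to 4.86 (Saa2) and DDE 1 (circle) the lowest DDE liver.

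The livers of the control group did not agree on these genes. Control 3 had the highest control value for 7 of the 10 genes, and by more than 0.3 for 6 of them. Over the 8542 genes above background on all arrays, control 3 was the highest control for 29.0%, and by more than 0.3 for 10.6%. Relative to the mean of the other 3 controls, control 3 was higher by 1.67 in Orm1, 1.30 in Saa2, 1.19 in Saa1, 1.10 in Saa4, 0.60 in Crp, 0.56 in Orm3 (on its stained spot) and 0.32 in Orm2. Saa3, Hp and Lcn2 did not share this, with differences of -0.10, 0.013 and -0.0067. The values of Saa1 and Saa2 in control 3 were at the top of the scale, so their differences are lower bounds. Control 4 was the lowest control for Orm1, Orm2, Saa3, Saa4, Crp, Hp and Lcn2. It was also the array least like the others, with Pearson correlations of 0.73 to 0.81, against 0.83 to 0.97 among the rest.

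**Figure D4:**
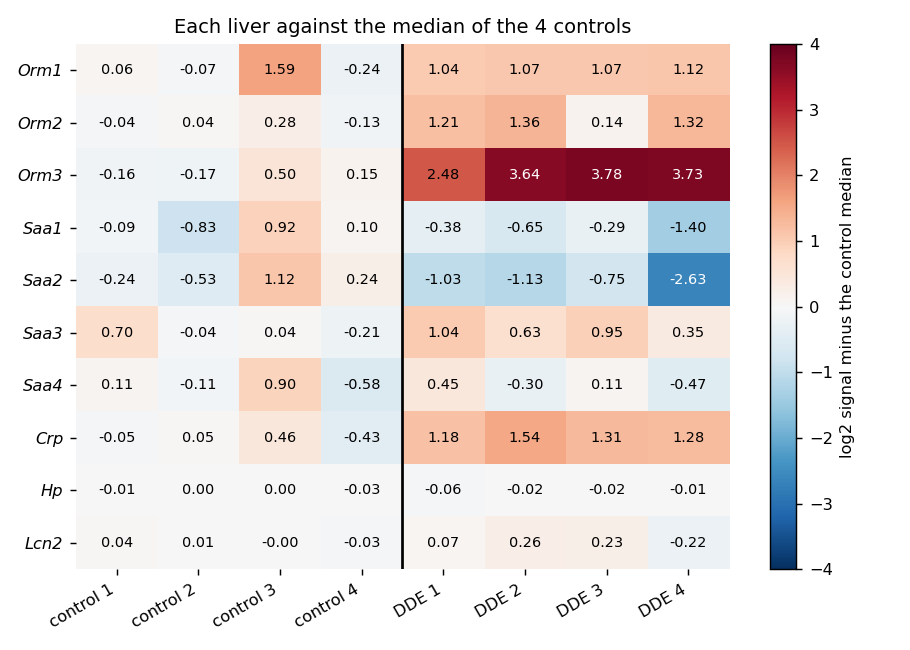
Log2 signal of each gene (rows) in each liver (columns) minus the median of the 4 controls, with red for higher and blue for lower. Control 3 is above the control median in Orm1 (1.59), Saa2 (1.12), Saa1 (0.92) and Saa4 (0.90). In the DDE livers the values are 2.48 to 3.78 for Orm3 and 1.18 to 1.54 for Crp, which passed the test, and -2.63 to -0.75 for Saa2, which did not.

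Over the wider lists control 3 stood out less. It was the highest control for 8 of 22 other positive acute phase genes above background (36.4%) and for 10 of 31 signalling genes. Among the 22, control 3 led by more than 0.3 for 5 (22.7%), against 10.6% over all genes above background on all arrays. Hamp was lowest there of the 4 controls, at 12.64, and Il6st, Nfkbia, Rela and Socs3 were highest in other controls. Socs3, a feedback inhibitor that rises with STAT3 activity, read 9.64 in control 3 and 9.58 to 9.91 in the other controls. Some regulators and targets, picked after their values were seen, were high in control 3. Cebpb, a C/EBP factor that binds acute phase promoters, read 11.44, 11.74, 12.42 and 11.25 in controls 1 to 4 and 12.64, 12.54, 12.31 and 12.53 in DDE 1 to 4. Control 3 thus reached the DDE range, and the change did not pass (0.79, limma adjusted p = 0.164). Cebpd, a relative induced early in inflammation, read 10.64 in control 3, 9.55 to 10.01 in the other controls and 9.43 to 9.90 after DDE. Steap4, a metalloreductase gene induced by inflammatory cytokines, read 10 in control 3, 9.07 to 9.24 in the other controls and 8.70 to 9.01 after DDE. The spots of Cebpb, Cebpd and Steap4 lay in no stained patch. Stat3, the transcription factor downstream of interleukin-6, had 11 probes, of which 10 were free of stain in control 3, and 8 of these 10 had their highest control value there (median difference from the other controls 0.49). S100a8, a neutrophil gene, read 13.54 in control 3 against 7.78 to 9.61 in the other controls, but on a stained spot, and its partner S100a9 read 9.85 there against 8.16 to 9.83.

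Markers of blood and other cells were compared as well. All 4 red blood cell markers were highest of the controls in control 3, the liver with the highest Orm1, Saa1 and Saa2. Over the 3 of them free of stain, the summed log2 signal was 15.58 to 16.77 in controls, with 16.77 in control 3, and 15.92 to 16.67 after DDE. Such a peak was not particular to control 3. Control 1 was the highest control for 11 of 11 Kupffer cell and macrophage markers and for 6 of 7 lymphocyte markers. The 6 of 12 measured neutrophil markers free of stain on all arrays had a summed log2 signal of 10.09 to 10.80 in controls and 10.54 to 11.49 after DDE. Control 3, at 10.80, was marginally below the highest control. Among these 6 only S100a9 lay above background on every array, and the others were dim. Of the 12, 4 (S100a8, S100a9, Elane and Csf3r) lay above background on every array. Camp and Ltf, both abundant in neutrophil granules, lay above it on none. Elane was lower in every DDE liver than in every control (change -1.84, limma adjusted p = 0.0814), with control 4 on a stained spot. Retnlg was higher without overlap (change 0.48, limma adjusted p = 0.322). For Kupffer cells and macrophages, 6 of 11 markers free of stain summed to 12.28 to 13.18 in controls and 11.99 to 12.39 after DDE. None of the markers of neutrophils or of Kupffer cells and macrophages passed the limma test (0 of 12 and 0 of 11, with 2 of the 12 and 1 of the 11 at an unadjusted p under 0.05). Of 8 stellate cell markers 1 passed as higher, Reln (7.09 to 7.32 in controls, 7.58 to 7.64 after DDE, limma adjusted p = 0.0391). None of the controls and 2 of the 4 DDE livers exceeded background for Reln, so no fold is given. Before adjustment 4 of the 8 stellate cell markers were higher and 1 was lower. Of 8 hepatocyte markers 1 fell, Apob. Lists for red blood cells, monocytes, lymphocytes, endothelial cells, cholangiocytes, adipocytes and pancreas held no call. For reference, 2.58% of all genes, 1 probe each, rose and 0.774% fell. Before adjustment, 15.0% of all probes differed in either direction with p under 0.05. The part of these cell types in the results was not tested.

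Of 23 other positive acute phase genes with a probe, 0 rose, 1 fell and 22 did not pass, with a median change of -0.19. Over all genes, 1 probe each, 2.58% rose and 0.774% fell. With so few genes these counts cannot be told apart from the shares over all genes. Before adjustment, 3 of the 23 were higher with p under 0.05 and 8 were lower, where 15.0% of all probes differed in either direction. The gene that fell was Itih3, which encodes a heavy chain that binds hyaluronan. It read 15.31, 15.50, 15.89 and 15.43 in controls 1 to 4 and 14.36, 14.41, 13.71 and 14.36 in DDE 1 to 4, so the groups did not overlap, and the fall was 2.50-fold (limma adjusted p = 0.0214). It did not pass once control 2, control 3, DDE 1 or DDE 2 was left out (limma adjusted p from 0.0501 to 0.067).

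Other plasma protein genes of the response lay on both sides. Serpina3n, a protease inhibitor gene, went from 12.34 ± 0.29 to 13.16 ± 0.31 (SD, n = 4) with no overlap and an adjusted p of 0.0863 in limma. Lbp, whose product carries bacterial lipopolysaccharide, changed by 1.05 and Hamp, the hepcidin gene, by 1.20, both without overlap (limma adjusted p = 0.267 and 0.134), the highest Hamp control being on a stained spot. Apcs, which encodes serum amyloid P, the major pentraxin of the mouse acute phase, changed by -1.46 and Fgl1 by -1.30 with overlapping groups (limma adjusted p = 0.261 and 0.231). The complement gene C4b changed by -1.34 without overlap (limma adjusted p = 0.123). Fgb, a fibrinogen chain gene, was within 0.1 of the top of the scale in 6 of 8 livers, so a rise could have gone unmeasured. Hpx in 2 controls and 3 DDE livers, Pzp in 4 controls and 1 DDE liver, and Fgg in 3 controls were also there. Their changes could have been cut short as well.

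Of 11 negative acute phase genes with a probe, 0 rose and 1 fell, with a median change of -0.01. The shares over all genes, 1 probe each, were 2.58% higher and 0.774% lower. The gene that fell was Apoa1, the main protein of high density lipoprotein, at 15.81 to 15.97 in controls and 15.04 to 15.55 after DDE. This was a fall of at least 1.52-fold (limma adjusted p = 0.04) at 1 of its 10 probes. All 10 Apoa1 probes had a lower mean after DDE. With single arrays left out it passed in 1 of 8 fits, without DDE 2, and limma's adjusted p ran from 0.0466 to 0.105. Nor did it pass with an intensity trend (0.0863), array weights (0.0606) or control 4 and DDE 4 left out (0.0989). Alb, Trf, Rbp4, Ahsg and Apoa2 read within 0.1 of the top in at least 7 of the 8 livers each, so a change in them could have gone unmeasured.

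Signalling genes of the acute phase gave 1 rise and 0 falls among 31 with a probe, with a median change of 0.10. By the same rule 2.58% of all genes, 1 probe each, rose and 0.774% fell. Relb, a subunit of NF-kappaB in its alternative pathway, read 7.95, 7.61, 7.66 and 7.45 in controls 1 to 4 and 8.43, 8.84, 8.67 and 8.34 in DDE 1 to 4. The groups did not overlap, 1 of the 4 controls was above background, and the rise was at least 1.79-fold (limma adjusted p = 0.0288). The spots of DDE 2 and DDE 3 were stained, and without stained spots the change was 0.72 and did not pass (adjusted p = 0.0657). Nor did it pass once control 2, control 3, DDE 1, DDE 2 or DDE 3 was left out (limma adjusted p from 0.0651 to 0.0854). At the other of the 2 Relb probes, which had no stained spot, the change was 0.71 and did not pass (limma adjusted p = 0.0577).

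The receptor genes Il6ra and Lifr were lower in every DDE liver than in every control, but neither passed. Il6ra, the receptor of interleukin-6, read 11.55, 11.66, 12.10 and 11.17 in controls 1 to 4 and 10.48, 10.60, 10.91 and 10.53 in DDE 1 to 4 (change -0.99, limma adjusted p = 0.0507). Lifr, the receptor of leukaemia inhibitory factor, changed by -1.06 (limma adjusted p = 0.0722). Il6st, the signalling chain that these receptors share, changed by 0.60 with overlapping groups (limma adjusted p = 0.415). Socs3, a feedback inhibitor that rises with STAT3 activity, had 9.73 ± 0.15 in controls and 9.81 ± 0.34 after DDE (SD, n = 4). Il6 itself exceeded background in a single DDE liver, DDE 3, and in none of the controls.

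Genes known as targets or partners of CAR and PXR, the related receptor of foreign compounds, served as a reference for Orm3. Of 32 with a probe, 15 rose and 0 fell, with a median change of 0.73. Among all genes, 1 probe each, 2.58% rose and 0.774% fell. The list was compiled with earlier results of these arrays known, so its count does not bear on its direction. Cyp2b10, the usual marker gene of CAR, rose at least 124-fold (limma adjusted p = 2.44e-05). Lower bounds for the other P450 genes were 37.3-fold in Cyp2c55, 29.3-fold in Cyp2a4 and 24.6-fold in Cyp2b9 (limma adjusted p = 0.00044, 0.00676 and 0.000282). Cyp2c55 read 12.22, 13.28, 13.37 and 12.72 in DDE 1 to 4, so that DDE 1 was the lowest and DDE 3 the highest, as for Orm3. Cyp2b9 had 11.98, 12.79, 12.56 and 11.87 in the same livers, with DDE 4 the lowest, which differs from Orm3. Nr1i3, the gene of CAR itself, had 10.33 ± 0.76 in controls and 10.90 ± 0.50 after DDE (SD, n = 4, limma adjusted p = 0.617).

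**Figure D5:**
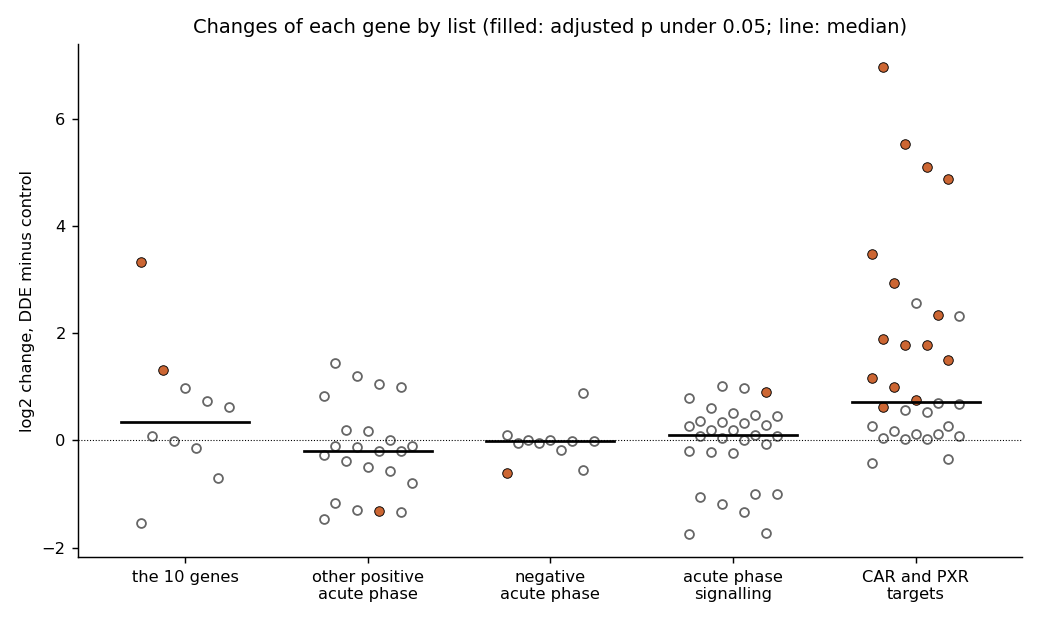
Log2 change, DDE minus control (vertical axis), of each gene in 5 lists, with filled points for genes past the threshold and a line at the median of each list. The medians are 0.35 for the 10 genes, -0.19 for other positive acute phase genes, -0.01 for negative ones, 0.10 for signalling genes and 0.73 for CAR and PXR targets, of which 15 passed.

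A list drawn up for proteins that handle orosomucoid or its partners showed no call. It also held Ormdl1, Ormdl2 and Ormdl3, which resemble the orosomucoid genes in symbol only. Of 15 genes, among them the hepatic asialoglycoprotein receptors Asgr1 and Asgr2 that clear desialylated orosomucoid, 0 passed in limma, with 1 lower and 0 higher where p was taken before adjustment at 0.05. Over all genes, 1 probe each, 3.35% passed in either direction, and before adjustment 15.0% of all probes had a p under 0.05. The median change of the 15 was -0.36. Of the 15, 7 lay above background on all arrays and 2, Cd14 and Ptx3, on none. Lower means of Tlr2, Tlr4 and Fpr2 after DDE rested on high control values on stained spots. The smallest p belonged to Lrp2, an endocytic receptor that takes up lipocalins, with a change of -0.52 (limma adjusted p = 0.0976) and none of the DDE livers above background.

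The genes whose pattern over the 8 arrays was most like that of Orm3 were searched among 5899 genes with a mean of at least 9. By Pearson correlation they were Inmt (0.99), Pla2g6 (0.99), Plk3 (0.98), Trpv4 (0.98) and Pnpla6 (0.98), and all 5 rose by 1.35 to 3.74. For Crp they were Sec24d, Tmem134, Bola3, Isca1 and Sympk (0.98 to 0.99), which rose by 0.79 to 0.93. For Saa1 they were Tmem30a (0.95), Tmem167b (0.94), Saa2 (0.93), Mgat1 (0.93) and Agtr1a (0.93), with changes from -1.53 to -0.53 that did not pass. For Hp they were Cox6a2, Mb, Myo18b, Exosc2 and Tpm1 (0.81 to 0.87), but Hp itself varied by 0.06 at the top of the scale. For Orm3 and Crp these coefficients largely restate the step between the groups, as the 8 arrays fall into those groups for both genes.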

How the data were processed

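Liver RNA of 4 control and 4 DDE-fed mice was hybridised to 1-colour arrays after Cy3 labelling, per the labels' protocols. The deposited table holds log2 signals normalized by the authors (array medians 7.46 to 7.47, top of the scale 16). The sources used here do not name the background correction, normalization method, filters or slides. Precision is limited by 8 arrays, 4 mice a group.

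All 42957 probes were fitted with limma 3.58.1 (lmFit, eBayes, R 4.3.3), DDE against control, no covariate, with Benjamini-Hochberg adjustment over all probes. Symbols came from the supplied probe annotation (33009 probes, 22471 genes), and a gene with several probes was represented by the brightest. Probe sequences and positions were not used here. The 10 genes and all lists were chosen with earlier results of these data known. Named outside them are, for each list, up to 4 genes past the threshold with the largest change (or that of smallest p), signalling genes, and the 5 genes most alike to Orm3, Crp, Saa1 and Hp (by Pearson correlation, among genes with a mean of at least 9). Alb, Cebpb, Cebpd, Steap4, Stat3, S100a8, S100a9, Camp, Ltf, Elane, Csf3r, Retnlg, Nfkbia, Rela, Reln, Apob, Serpina3n, Lbp, Hamp, Apcs, Fgl1, C4b, Fgb, Fgg, Hpx, Pzp, Trf, Rbp4, Ahsg, Apoa2, Asgr1, Asgr2, Ormdl1, Ormdl2, Ormdl3, Cd14, Ptx3, Tlr2, Tlr4, Fpr2 and Nr1i3 were named after their values were seen.

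Array background was the 0.95 quantile of 1634 receptor probes. A spot counted as stained where its neighbours, 7 rows by 5 columns on a layout with 85 spots per row, deviated from the other arrays by a median beyond 0.3. Folds are lower bounds where a dim value was at background or a bright one at 15.9 or above. Simulated data with known changes served as a test of the fits. Alternatives are listed with their effects at the end.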

Additional observations from a re-analysis of the deposited data

Results flagged for a closer look

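Single livers stood far from the rest of their group in 5 of 36 groups of 4 values tested with Dixon's 95% criterion, where chance gives about 1 in 20. The values were Orm1 at 12.95 in control 3, Orm2 at 14.76 in DDE 3, Orm3 at 10.26 in DDE 1, Itih3 at 13.71 in DDE 3 and Cyp2b10 at 9.57 in control 4. For the 10 genes alone it was 3 of 20 groups. None of these 5 spots lay in a stained patch.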

How the results depend on the processing

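Of the alternatives, 1 was added after seeing the data: leaving out control 4 and DDE 4, the most stained arrays. The direction of Orm1, Orm2, Orm3, Saa1, Saa2, Saa3, Crp, Hp and Lcn2 was kept in every alternative in which each could be fitted (Lcn2 was dropped with the dim probes). Saa4 turned to 0.14 without control 3 and 0.0017 without DDE 4 (range when single arrays were left out -0.36 to 0.14). Over single arrays left out the change was 0.55 to 1.16 for Orm1, 0.85 to 1.26 for Orm2, 3.20 to 3.63 for Orm3 and 1.17 to 1.47 for Crp, and the number of the 10 genes called was 1 to 3. The probes called were 271 to 1362 higher and 61 to 428 lower. Higher and lower probes numbered 399 and 112 with an intensity trend and robust variance, 1607 and 533 with array weights, and 611 and 164 when probes were averaged per gene. Lower probes numbered 518 with dim probes left out and 443 without control 4 and DDE 4. With the replicate number as a block, 8 probes were higher and 1 lower and 0 of the 10 genes passed, with Orm3 at 3.33 (adjusted p = 0.0541) and Crp at 1.32 (adjusted p = 0.0818). Whether the numbers pair mice is not known: same-numbered deviations from the group means correlated at 0.22, 0.11, 0.12 and -0.081 over 13660 probes, and control 4 was more alike to DDE 3 (0.17) than to DDE 4. Elsewhere Orm3 passed in each alternative. For Orm3 against each other gene, the exact permutation test cannot pass the threshold once an array or the stained spots are left out (smallest p 0.0571, and 0.133 for Saa2 without stained spots) or signs are flipped within replicate blocks (smallest p 0.125). Leaving out single arrays gave differences of 2.31 to 2.89 (Orm1), 1.94 to 2.73 (Orm2), 3.68 to 4.44 (Saa1), 4.33 to 5.28 (Saa2), 2.43 to 3.11 (Saa3), 3.22 to 3.94 (Saa4), 1.88 to 2.26 (Crp), 3.22 to 3.64 (Hp) and 3.04 to 3.55 (Lcn2). Without stained spots they were 2.31, 2.41, 3.87, 4.57, 2.87, 3.33, 1.99, 3.48 and 3.39 in that order, and with the replicate block 2.59, 2.35, 4.03, 4.86, 2.71, 3.46, 2.00, 3.34 and 3.25. The causes of these shifts were not tested. Signals at the top of the scale (Hp) and at background (Lcn2, Orm3 in controls) set the limit of what could be measured.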
